A study of Homo sapiens with 12 samples.

Results

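The 10 genes described here make and load the peptides that class I HLA molecules carry to the cell surface. They were chosen by name, with earlier results of these data known. PSMB8, PSMB9 and PSMB10 are the catalytic subunits of the immunoproteasome, and TAP1 and TAP2 form the peptide transporter of the endoplasmic reticulum. TAPBP (tapasin) and CALR (calreticulin) belong to the peptide loading complex, ERAP1 and ERAP2 trim peptides, and NLRC5 is a transactivator of class I genes. All 10 were found among 20172 named genes on the arrays, on 20 of 33297 rows of the deposited table, and each was read on its brightest row, the one with the highest mean over 12 arrays. Every one of these rows carried 1 gene symbol.

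Gene expression was measured on Affymetrix arrays, which read biotin-labelled cRNA by hybridisation, in 4 groups of 3 arrays. They are KA treated with decitabine, KA untreated, KS treated with decitabine and KS untreated. KS stands for K562, an established human cell line of chronic myeloid leukaemia. KA stands for K562/ADR, its resistant subline, kept in 50 nM adriamycin (doxorubicin). Decitabine, a cytidine analogue that traps DNA methyltransferases and lowers DNA methylation, was given at 5 nM for 72 hours. The study asked how decitabine acts on multidrug resistance through the efflux pump P-glycoprotein. KA is 1 selected subline, so selection, adriamycin in its medium and line differ together between KA and KS and cannot be told apart. What the untreated cells were given, and whether replicates were separate cultures, is not in the labels, so the p-values rest on the spread between arrays of a group, which may be technical.

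Proteasomes cut cytosolic proteins into peptides, and under interferon their constitutive catalytic subunits are replaced by PSMB8, PSMB9 and PSMB10. TAP1 and TAP2 pump the peptides into the endoplasmic reticulum, where tapasin and calreticulin hold empty class I molecules near the transporter and ERAP1 and ERAP2 shorten peptides that are too long. K562 is known for very low class I on its surface and is therefore a standard target for natural killer cells.

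The promoters of PSMB9 and TAP1 are printed because these neighbours are read in opposite directions from 1 shared interval and rose most with decitabine in KS. TAP2, PSMB8, TAP1 and PSMB9 lie side by side in the HLA region of chromosome 6. In RefSeq (GRCh38.p14) the start of PSMB9 lies 488 bases from the start of TAP1. Each window runs from 250 bases before the gene's start to 50 after it, 5′ to 3′ on the gene's strand, with every CpG, the dinucleotide that carries DNA methylation, in capitals. The 2 windows share 13 bases and together cover the interval.
PSMB9, chr6:32853942-32854241, + strand: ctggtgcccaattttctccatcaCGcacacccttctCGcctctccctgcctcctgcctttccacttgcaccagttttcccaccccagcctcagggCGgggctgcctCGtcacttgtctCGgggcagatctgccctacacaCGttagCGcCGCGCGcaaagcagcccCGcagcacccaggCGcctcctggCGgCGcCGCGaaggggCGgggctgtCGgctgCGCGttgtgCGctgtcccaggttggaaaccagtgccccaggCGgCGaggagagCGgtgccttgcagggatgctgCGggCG
TAP1, chr6:32853655-32853954, - strand: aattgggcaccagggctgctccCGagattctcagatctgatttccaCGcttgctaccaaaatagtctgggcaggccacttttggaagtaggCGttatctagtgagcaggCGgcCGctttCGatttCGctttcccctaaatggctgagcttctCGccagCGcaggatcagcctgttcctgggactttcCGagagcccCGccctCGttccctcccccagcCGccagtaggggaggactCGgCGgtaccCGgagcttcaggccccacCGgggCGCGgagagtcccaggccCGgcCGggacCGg
The PSMB9 window holds 26 CpG and this TAP1 window 22, against a median of 14 (quartiles 4 and 28) over 35116 windows of 300 bases. CpG numbers among the other genes ranged widely. The ERAP1 windows hold 28 and 3, CALR 26, TAP2 24, the PSMB8 windows 17 and 15, TAPBP 12, a second TAP1 window 11, PSMB10 7 and the ERAP2 windows 1 and 3. NLRC5 has no entry in the table.

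A core of the interferon-stimulated response element (GAAANNGAAA, searched on both strands) was found in 7 of the 13 windows of these genes, 53.8%, and in 3.57% of all windows. The stretches below are shown because the genes that hold them did not all respond alike. They are read on the strand of the match, with the core in capitals; in TAP1 and TAPBP 2 overlapping cores are joined.
PSMB8, chr6:32844035-32844058, + strand: aggaagtGAAAGCGAAAgccacag
PSMB10, chr16:67936855-67936878, - strand: taaaggcGAAAGCGAAAgcaggaa
TAP1, chr6:32853816-32853845, + strand: tttagggGAAAGCGAAATCGAAAgcggccg
TAP2, chr6:32838781-32838804, - strand: gggaagcGAAAGCGAAAgctgccc
TAPBP, chr6:33314076-33314105, - strand: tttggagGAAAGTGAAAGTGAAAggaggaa
ERAP1, chr5:96807927-96807950, + strand: caggaccGAAAGTGAAAgtggagc
ERAP2, chr5:96876463-96876486, + strand: tagaacaGAAAGTGAAAgcaaaag
The cores of TAP1 lie 354 to 369 bases upstream of the start of PSMB9, outside the printed PSMB9 window. No core was found in the windows of PSMB9 and CALR. Of the 9 genes with a window, the kappa B consensus was found in 3 (TAP1, TAPBP and ERAP1), and in 11.3% of all windows. The GC box (GGGCGG) was found in 6 of the 9 genes and in 45.0% of all windows. A gamma-activated site core (TTCNNNGAA), added after the other motifs were chosen, was found in 2 of the 9 (PSMB8 and TAP1) and in 7.66% of all windows. Some genes have 2 windows, so these counts of genes and shares of windows are unlike measures. In these windows no match overlapped a match of another motif, and a match describes letters only.

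Values are log2 intensities. The median of an array was 4.96 to 5.01, and correlations within groups were 0.990 to 0.995. A background level of 3.39 was set at the largest lower quartile among the arrays, and group means up to it were taken as not shown to exceed background. All 9 measured K562 markers exceeded it in all 4 groups, and their summed linear intensity was 13091 to 13384 in KA with decitabine, 13086 to 13990 in KA untreated, 12982 to 13120 in KS with decitabine and 11373 to 11692 in KS untreated. Lymphoid markers (9 measured, 8 above background in each group) summed to 383 to 402, 346 to 376, 243 to 277 and 191 to 242 in the same order. The T cell marker CD3D read 6.91, 6.95, 4.55 and 4.67 and the B cell marker CD22 read 6.92, 6.47, 6.60 and 5.24. Monocyte and dendritic cell markers (9 measured, 6 above background) summed to 129 to 143, 127 to 146, 121 to 137 and 118 to 137, and fibroblast and endothelial markers (10 measured, 5 or 6 above background) to 286 to 297, 262 to 288, 288 to 316 and 277 to 287. None of these markers was listed at 0, and their part in the results was not tested. ABCB1, the efflux pump that marks the resistant line, read 11.36 in KA with decitabine, 11.22 in KA untreated, 3.46 in KS with decitabine and 3.39 in KS untreated. In bulk RNA, fewer cells that express a gene and less of its RNA per cell cannot be told apart.

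Untreated KS replicate 3 stood apart from its group. Its values were displaced from the other untreated KS arrays toward the treated ones, by a median of 36.8% of the distance over 337 genes raised in KS (by 1 or more on the log2 scale, with this array left out) and of 23.6% over 157 lowered genes. KS replicate 1 with decitabine was displaced the other way by 9.39% over 280 raised genes and 29.5% over 157 lowered genes. Calls among the 10 genes that changed when one of these arrays was left out are given with and without it. In the tests, a gene is called higher or lower at an adjusted p under 0.05 (limma, Benjamini-Hochberg over 19010 rows tested), and differences are log2 values ± SE. Arrays of 2 groups lay fully apart, in either direction, in many rows. The share of all rows was 36.2% with decitabine in KA and 40.4% in KS. Between lines it was 38.5% untreated and 41.5% treated. Separation of arrays alone is thus common here.

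Of the immunoproteasome subunits, only PSMB9 was called with decitabine. PSMB8 lay under background, so whether it moved with PSMB9 cannot be read. PSMB9, which replaces PSMB6, rose with decitabine in KS 3.66-fold, while PSMB8, which replaces PSMB5, and PSMB10, which replaces PSMB7, were not called. PSMB9 read 4.63, 4.92 and 4.93 in KA with decitabine, against 4.58, 4.69 and 4.52 in KA untreated. In KS it read 6.61, 6.62 and 6.69 with decitabine, against 4.36, 4.67 and 5.27 untreated. The treated KS arrays stood well above the other 9 arrays, which overlapped between groups, and the highest of those 9 was untreated KS replicate 3. The difference with decitabine was 1.87 ± 0.17 in KS (adjusted p = 1.07e-05, limma) and 2.12 without untreated KS replicate 3 (adjusted p = 1.79e-07). In KA it was 0.23 ± 0.17 (adjusted p = 0.423), with a 95% interval of -0.14 to 0.60. PSMB9 in KA and in untreated KS (mean 4.77) read at the height of the B cell marker CD79A (group means 4.73 to 4.82). Another B cell marker, MS4A1, lay under background. Expression of PSMB9 outside treated KS is therefore not shown, and its folds and differences describe intensities rather than amounts of RNA. The response in KA was lower than in KS by -1.65 ± 0.24 (adjusted p = 0.00315), and by -1.90 without that array (adjusted p = 4.91e-05). Untreated lines did not differ past the threshold in PSMB9 (-0.17 ± 0.17, adjusted p = 0.528; 0.08 and adjusted p = 0.646 without untreated KS replicate 3), and treated KA was 3.52-fold below treated KS (-1.82 ± 0.17, adjusted p = 4.67e-06).

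PSMB8 lay under the background level on every array, between 2.98 and 3.13 in both KA groups and between 2.92 and 3.24 in both KS groups. No fold is given for it. Its difference with decitabine in KS was 0.15 ± 0.08 (adjusted p = 0.179), and it passed the threshold without untreated KS replicate 3 (0.23, adjusted p = 0.0380). PSMB10 lay between 5.06 and 5.39 in KA with decitabine, between 5.34 and 5.43 in KA untreated, between 5.50 and 5.58 in KS with decitabine and between 5.65 and 5.70 in KS untreated. It was not called with decitabine in KA (-0.13 ± 0.08, adjusted p = 0.349) or in KS (-0.12 ± 0.08, adjusted p = 0.346). PSMB10 was lower in KA than in KS, by -0.28 ± 0.08 untreated (adjusted p = 0.0221) and by -0.29 ± 0.08 treated (adjusted p = 0.0171). The untreated call was lost without untreated KA replicate 1 (adjusted p = 0.0571), KA replicate 2 (0.0798) or KS replicate 1 (0.0701). The treated call was lost without treated KA replicate 1 (-0.19, adjusted p = 0.0727), KS replicate 1 (0.0519) or KS replicate 2 (0.0542), and with only these 2 groups in the fit (0.0502). Group means of PSMB10, 5.26 to 5.67, read at the height of the lymphoid marker NKG7 (5.44 to 5.54), so expression of PSMB10 is not shown.

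**Figure D1:**
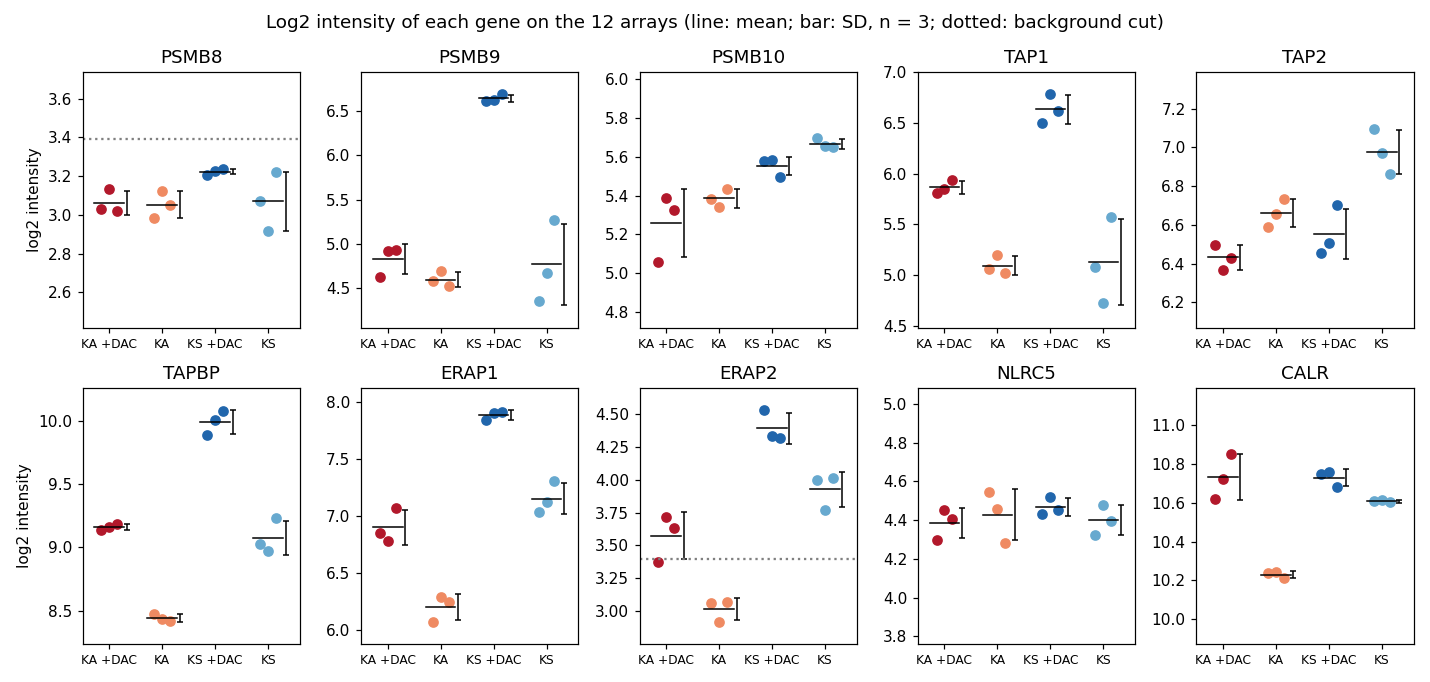
Log2 intensity (vertical axis, its own range in each panel) of the 10 genes on 12 arrays in 4 groups, KA with decitabine (KA +DAC), KA, KS with decitabine (KS +DAC) and KS; points are arrays, lines are means, bars are SD (n = 3) and the dotted line is the background level of 3.39. PSMB9 stands at 6.61 to 6.69 in treated KS and at 4.36 to 5.27 elsewhere, while NLRC5 lies between 4.28 and 4.54 in every group.

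The subunits of the peptide transporter moved apart. TAP1 rose with decitabine in both lines, 1.70-fold in KA and 2.84-fold in KS, while TAP2 was lower with decitabine in KS. TAP1 read 5.81, 5.85 and 5.94 in KA with decitabine, against 5.06, 5.20 and 5.02 in KA untreated. In KS it read 6.50, 6.78 and 6.62 with decitabine, against 5.08, 4.73 and 5.58 untreated. Untreated TAP1 (means of 5.10 in KA and 5.13 in KS) read at the height of MARCO, a monocyte and dendritic cell marker (group means 4.77 to 5.13). Its expression in untreated cells is therefore not shown, and its folds describe intensities. Treated arrays lay above all untreated arrays in each line, and untreated KS spread most, with replicate 3 the highest. The difference was 0.77 ± 0.16 in KA (adjusted p = 0.00692) and 1.50 ± 0.16 in KS (adjusted p = 2.2e-05; 1.73 and adjusted p = 9.74e-07 without untreated KS replicate 3). The difference between these responses, -0.74 ± 0.23, did not pass the threshold (adjusted p = 0.0713, 95% interval -1.22 to -0.25). It did without untreated KS replicate 3 (-0.96, adjusted p = 0.00337), with an intensity trend in the variance (adjusted p = 0.0328) and with array weights (-0.88, adjusted p = 0.00891). Untreated lines did not differ past the threshold in TAP1 (-0.03 ± 0.16, adjusted p = 0.904, 95% interval -0.38 to 0.31; 0.19 and adjusted p = 0.259 without untreated KS replicate 3), and treated KA was lower than treated KS (-0.77 ± 0.16, adjusted p = 0.00266).

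**Figure D2:**
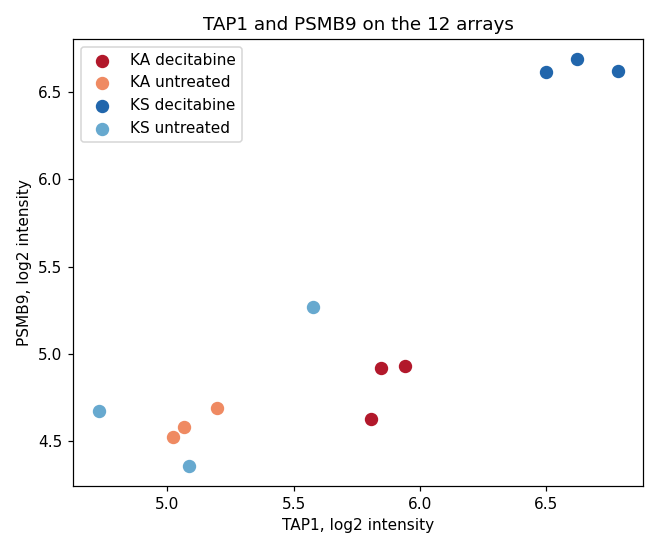
Log2 intensity of PSMB9 (vertical axis) against TAP1 (horizontal axis), 1 point per array, coloured by group. Treated KS arrays lie high on both axes (TAP1 6.50 to 6.78, PSMB9 6.61 to 6.69), and treated KA arrays are moved to the right (TAP1 5.81 to 5.94) while their PSMB9, 4.63 to 4.93, overlaps that of untreated arrays.

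In the plot of PSMB9 against TAP1, treated KA arrays moved past the threshold in TAP1 only. With decitabine in KA, TAP1 gained 0.77 with an interval of 0.42 to 1.11, and PSMB9 gained 0.23 with an interval of -0.14 to 0.60. In KS both rose, by 1.50 and 1.87. The gap between the 2 genes' responses within a line was not tested. The KA intervals overlap, and expression of PSMB9 in KA is not shown, so whether the neighbours part there is not settled.

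TAP2 read 6.50, 6.37 and 6.43 in KA with decitabine, against 6.59, 6.66 and 6.73 in KA untreated. In KS it read 6.46, 6.51 and 6.70 with decitabine, against 7.09, 6.97 and 6.86 untreated. Every treated array lay below every untreated array of its line. Of all rows, 36.2% in KA and 40.4% in KS were as fully separated, in either direction. The difference was -0.42 ± 0.08 in KS (adjusted p = 0.00196) and -0.23 ± 0.08 in KA, which was not called (adjusted p = 0.0943) but passed with quantile normalization (-0.27, adjusted p = 0.0335) and with array weights (adjusted p = 0.0280). The responses did not differ past the threshold (0.19 ± 0.12, adjusted p = 0.366). Untreated KA was below untreated KS by -0.32 ± 0.08 (adjusted p = 0.0140), a call lost without untreated KA replicate 1 (adjusted p = 0.0580) or untreated KS replicate 1 (adjusted p = 0.0675). Treated lines did not differ past the threshold (-0.12 ± 0.08, adjusted p = 0.348). TAP2 has 3 rows, and the other 2 gave -0.44 and -0.42 in KS and -0.12 and -0.22 in KA.

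Of the loading complex genes, TAPBP rose with decitabine in both lines, and CALR rose in KA. Tapasin bridges the transporter and the class I molecule. TAPBP read 9.14, 9.16 and 9.18 in KA with decitabine, against 8.47, 8.43 and 8.42 in KA untreated. KS arrays read 9.89, 10.01 and 10.08 with decitabine, against 9.03, 8.98 and 9.23 untreated. Treated arrays stood above untreated ones in each line, and treated KA lay at the height of untreated KS. The difference was 0.72 ± 0.08 in KA (1.65-fold, adjusted p = 0.00017) and 0.91 ± 0.08 in KS (1.89-fold, adjusted p = 7.3e-06), and the responses did not differ past the threshold (-0.20 ± 0.11, adjusted p = 0.311). KA was below KS in TAPBP untreated (-0.63 ± 0.08, adjusted p = 4.93e-05) and treated (-0.83 ± 0.08, adjusted p = 4.15e-06). The other 2 rows of TAPBP gave 0.73 and 0.61 in KA, 0.88 and 0.83 in KS, and -0.61 and -0.52 between untreated lines.

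Calreticulin is a lectin chaperone that also folds many other glycoproteins. CALR read 10.62, 10.72 and 10.85 in KA with decitabine, against 10.24, 10.24 and 10.21 in KA untreated. KS arrays read 10.75, 10.76 and 10.68 with decitabine, against 10.61, 10.62 and 10.60 untreated. Untreated KA was the lowest group, and the treated groups overlapped. The difference was 0.50 ± 0.07 in KA (1.42-fold, adjusted p = 0.000669) and 0.12 ± 0.07 in KS (adjusted p = 0.226, 95% interval -0.03 to 0.27). The responses differed by 0.38 ± 0.10 (adjusted p = 0.0360). That call is weak: it was lost when any 1 array other than treated KA replicate 1 or untreated KS replicate 3 was left out (adjusted p = 0.0529 to 0.0836), and with all rows of the table tested (adjusted p = 0.0618). Untreated KA was below untreated KS (-0.38 ± 0.07, adjusted p = 0.00113), and treated lines did not differ past the threshold (0.00 ± 0.07, adjusted p = 0.987, 95% interval -0.15 to 0.15).

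Both trimming enzymes were lower in KA than in KS and rose with decitabine in both lines. ERAP1 read 6.85, 6.78 and 7.07 in KA with decitabine, against 6.08, 6.29 and 6.25 in KA untreated. KS arrays read 7.84, 7.90 and 7.91 with decitabine, against 7.04, 7.12 and 7.30 untreated. Within each line the treated arrays lay above the untreated ones, and treated KA overlapped untreated KS. The difference with decitabine was 0.70 ± 0.09 in KA (1.62-fold, adjusted p = 0.000661) and 0.73 ± 0.09 in KS (1.66-fold, adjusted p = 8.36e-05). The responses differed by -0.04 ± 0.13, with a 95% interval of -0.33 to 0.25 (adjusted p = 0.908). KA was below KS by -0.95 ± 0.09 untreated (1.93-fold, adjusted p = 8.85e-06) and by -0.98 ± 0.09 treated (1.98-fold, adjusted p = 5.59e-06).

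ERAP2 lay near background. It read 3.37, 3.72 and 3.63 in KA with decitabine, against 3.07, 2.92 and 3.07 in KA untreated. In KS it read 4.53, 4.33 and 4.32 with decitabine, against 4.0, 3.77 and 4.01 untreated. No 2 of the 4 groups overlapped, untreated KA was under the background level, and 2 of 3 treated KA arrays exceeded it. KS means of ERAP2, 3.93 untreated and 4.39 treated, read at the height of CD3E (group means 3.89 to 4.08) and CD14 (4.20 to 4.41). These T cell and monocyte markers are not expected in K562, so expression of ERAP2 is not shown and its folds describe intensities. ERAP2 rose with decitabine by 0.56 ± 0.10 in KA (at least 1.13-fold, adjusted p = 0.00368) and by 0.47 ± 0.10 in KS (1.38-fold, adjusted p = 0.00362). It was at least 1.45-fold lower in untreated KA than in untreated KS (-0.91 ± 0.10, adjusted p = 2.64e-05) and 1.76-fold lower in treated KA than in treated KS (-0.82 ± 0.10, adjusted p = 5.74e-05). Because untreated KA gives only a bound, the size of the ERAP2 response was not compared between the lines. In RefSeq the spans of ERAP1 and ERAP2 overlap on opposite strands, and the sources used here do not give whether their rows keep the strands apart. The same holds for PSMB8 and TAP1, which overlap the antisense RNA PSMB8-AS1. TAPBP also overlaps RGL2, ERAP1 overlaps CAST and LOC entries, CALR overlaps MIR6515 and NLRC5 overlaps the pseudogene CFAP69P1. Whether their rows keep these apart is likewise not given.

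NLRC5, which drives transcription of class I genes and several genes described here, was not called in any of the 5 comparisons. It read between 4.30 and 4.45 in KA with decitabine, between 4.28 and 4.54 in KA untreated, between 4.43 and 4.52 in KS with decitabine and between 4.32 and 4.48 in KS untreated, so all groups overlapped. The difference with decitabine was -0.04 ± 0.08 in KA (adjusted p = 0.777, 95% interval -0.22 to 0.13) and 0.07 ± 0.08 in KS (adjusted p = 0.592, 95% interval -0.10 to 0.24). The T cell marker CD8A and the monocyte marker CSF1R, not expected in K562, had group means of 4.25 to 4.50 and 4.28 to 4.49. The B cell marker MS4A1 lay under background. Expression of NLRC5 is therefore not shown, and the lack of a call does not show that its RNA was steady.

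**Figure D3:**
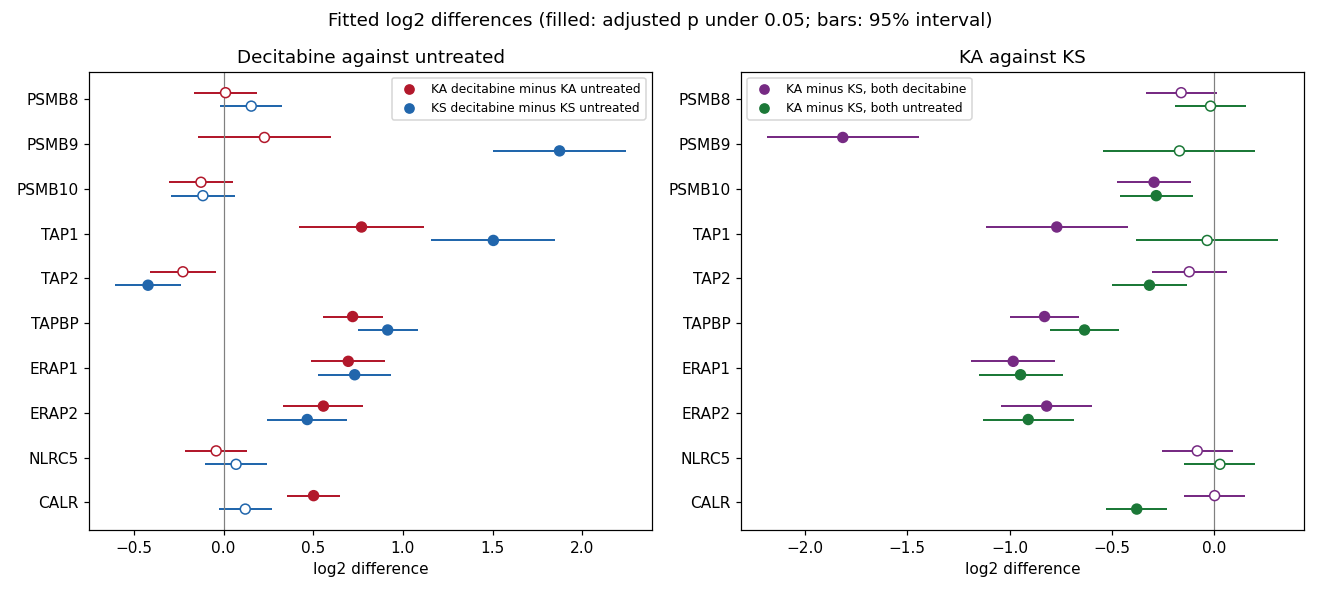
Fitted log2 differences (horizontal axis) of the 10 genes with 95% intervals (bars); filled points have an adjusted p under 0.05. With decitabine TAP1, TAPBP, ERAP1 and ERAP2 lie right of 0 in both lines, PSMB9 does so past the threshold in KS (1.87) and CALR in KA (0.50); between lines, the called genes all lie left of 0.

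With decitabine in KA, 5 of the 10 genes were called higher (TAP1, TAPBP, ERAP1, ERAP2 and CALR) and none lower, against 9.81% of all rows higher and 5.13% lower (14.9% in either direction). Their median difference was 0.36, and that of all rows -0.02. Centring each array on its median turned the calls over all rows to 1413 higher and 1498 lower, against 1864 and 975 as deposited, and the 5 calls were kept in number and direction.

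With decitabine in KS, 5 genes were called higher (PSMB9, TAP1, TAPBP, ERAP1 and ERAP2) and TAP2 lower, against 14.7% of all rows higher and 16.1% lower (30.8% in either direction). The median difference was 0.31, and that of all rows -0.01. Median centring gave 1949 higher and 4531 lower over all rows, against 2793 and 3055 as deposited, with the same numbers among the 10 genes. Without untreated KS replicate 3, 6 genes were called higher, PSMB8 being the addition, and 1 lower.

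The decitabine responses differed between the lines for 2 of the 10 genes, with PSMB9 lower and CALR higher in KA, against 2.18% of all rows lower and 4.73% higher (6.92% in either direction). Over all rows 900 responses were higher and 415 lower in KA, and 646 and 545 with quantile normalization. The number of these genes called was 1 to 3 when single arrays were left out.

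Before treatment, 6 of the 10 genes were lower in KA than in KS (PSMB10, TAP2, TAPBP, ERAP1, ERAP2 and CALR) and none was higher, against 14.3% of all rows lower and 11.6% higher (25.9% in either direction). The median was -0.30, and that of all rows 0.01. After treatment, 6 were lower in KA than in KS (PSMB9, PSMB10, TAP1, TAPBP, ERAP1 and ERAP2) and none was higher, against 12.2% and 15% of all rows (27.2% in either direction), with a median of -0.53 against 0.00. The comparison of untreated lines shares its untreated arrays with the decitabine comparisons, and that of treated lines shares its treated arrays with them. For untreated lines, quantile normalization turned the calls over all rows to 2707 higher and 2281 lower in KA, against 2209 and 2711 as deposited. Median centring gave 1783 higher and 3251 lower.

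Around these genes, the rest of the pathway was read from 4 lists chosen with earlier results of these data known. Their counts stand against 9.81% of all rows higher and 5.13% lower with decitabine in KA, and 14.7% higher and 16.1% lower in KS. The 14 proteasome counterparts, activators and assembly factors had 1 member higher and 3 lower in KA (median -0.12), and 2 higher and 4 lower in KS (median -0.11). In KA, 1 was lower without treated or untreated KA replicate 3. In KS, median centring gave 1 higher and 6 lower. PSMB6, the constitutive subunit that PSMB9 replaces, was lower by -0.48 ± 0.06 in KA (adjusted p = 0.000522) and by -0.37 ± 0.06 in KS (adjusted p = 0.000634). PSMB5 (-0.09 in KA, -0.08 in KS) and PSMB7 (-0.12 and -0.14) were not called. PSME1, a subunit of the interferon-inducible activator PA28, rose by 0.32 ± 0.06 in KA (adjusted p = 0.0053) and by 0.44 ± 0.06 in KS (adjusted p = 0.000177), whereas its partner PSME2 was not called (0.14 and -0.06). PSME3, the nuclear activator PA28 gamma, was lower in KA (-0.33 ± 0.08, adjusted p = 0.0149, up to 0.0553 with single arrays left out) and in KS (-0.74 ± 0.08, adjusted p = 2.26e-05). PSMG1, an assembly chaperone, was lower in KA (-0.27 ± 0.07, adjusted p = 0.0197, up to 0.0639 with single arrays left out) and in KS (-0.45 ± 0.07, adjusted p = 0.000319).

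Of 7 other peptidases measured, 3 were lower with decitabine in KA and 5 in KS, and none was higher (medians -0.16 and -0.31). LAP3, a leucine aminopeptidase, was lower by -0.34 ± 0.07 in KA (adjusted p = 0.00586) and by -0.52 ± 0.07 in KS (adjusted p = 8.97e-05), and IDE, the insulin-degrading enzyme, by -0.32 ± 0.07 (adjusted p = 0.0102) and -0.35 ± 0.07 (adjusted p = 0.0021). Thus the 2 trimming enzymes of the endoplasmic reticulum were higher with decitabine, and LAP3 and IDE lower, in both lines.

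Among 6 measured chaperones and class I molecules, 1 was higher with decitabine in KA and 5 in KS, and none was lower (medians 0.06 and 0.24). The KS count was 4 without untreated KS replicate 3, 3 without untreated KS replicate 1, 3 without treated KS replicate 2, 3 with the KS groups fitted alone and 2 with median centring. B2M, the light chain of every class I molecule, rose by 0.39 ± 0.09 in KA (adjusted p = 0.00966) and by 0.52 ± 0.09 in KS (adjusted p = 0.000482). TAPBPL, a tapasin relative that edits peptides, rose in KS by 0.57 ± 0.15 (adjusted p = 0.0106; 0.0549 without untreated KS replicate 1) and was not called in KA (0.05, adjusted p = 0.852). UGGT1, a folding sensor that returns misfolded glycoproteins to calreticulin, rose in KS by 0.26 ± 0.06 (adjusted p = 0.00396; 0.0555 with median centring). CANX, the membrane-bound relative of calreticulin, was not called in KA (-0.03, adjusted p = 0.79) or KS (0.12, adjusted p = 0.164). HLA-B, HLA-C, HLA-F and PDIA3 share their row with other symbols and are not reported.

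Of 21 measured genes of interferon signalling and class I transcription, 6 were higher with decitabine in KA and none lower, and 8 were higher and 6 lower in KS (medians 0.11 and 0.09). In KA the higher calls numbered 3 with median centring (and 1 lower), without untreated KA replicate 1 and without treated KA replicate 3. In KS there were 5 higher and 7 lower with median centring, 6 and 3 without untreated KS replicate 1 or without treated KS replicate 3, and 7 and 7 without untreated KS replicate 3. IRF1, the interferon response factor that acts on several of these promoters, rose by 0.65 ± 0.08 in KA (adjusted p = 0.000254) and by 0.30 ± 0.08 in KS (adjusted p = 0.00845; lost with median centring and without the 2 KS arrays that stood apart, at adjusted p up to 0.0917). IRF2 rose by 0.41 ± 0.09 and 0.59 ± 0.09 (adjusted p = 0.00908 and 0.000297), and IRF9, the DNA-binding part of the interferon-stimulated complex, by 0.48 ± 0.08 and 0.36 ± 0.08 (adjusted p = 0.00227 and 0.00416). IFNAR2, a subunit of the type I interferon receptor, rose by 0.28 ± 0.07 in KA (adjusted p = 0.0200, up to 0.0829 in the alternatives) and by 0.53 ± 0.07 in KS (adjusted p = 0.000124). SOCS1, a feedback inhibitor of JAK signalling, rose in KS by 1.01 ± 0.12 (adjusted p = 4.57e-05) and was not called in KA (0.06, adjusted p = 0.771), and these responses differed (-0.94 ± 0.17, adjusted p = 0.00899). NFKB1, a subunit of NF-kappa B, was lower in KS (-0.57 ± 0.08, adjusted p = 0.000167) and not called in KA (0.05, adjusted p = 0.724), and its responses differed by 0.62 ± 0.11 (adjusted p = 0.00996).

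**Figure D4:**
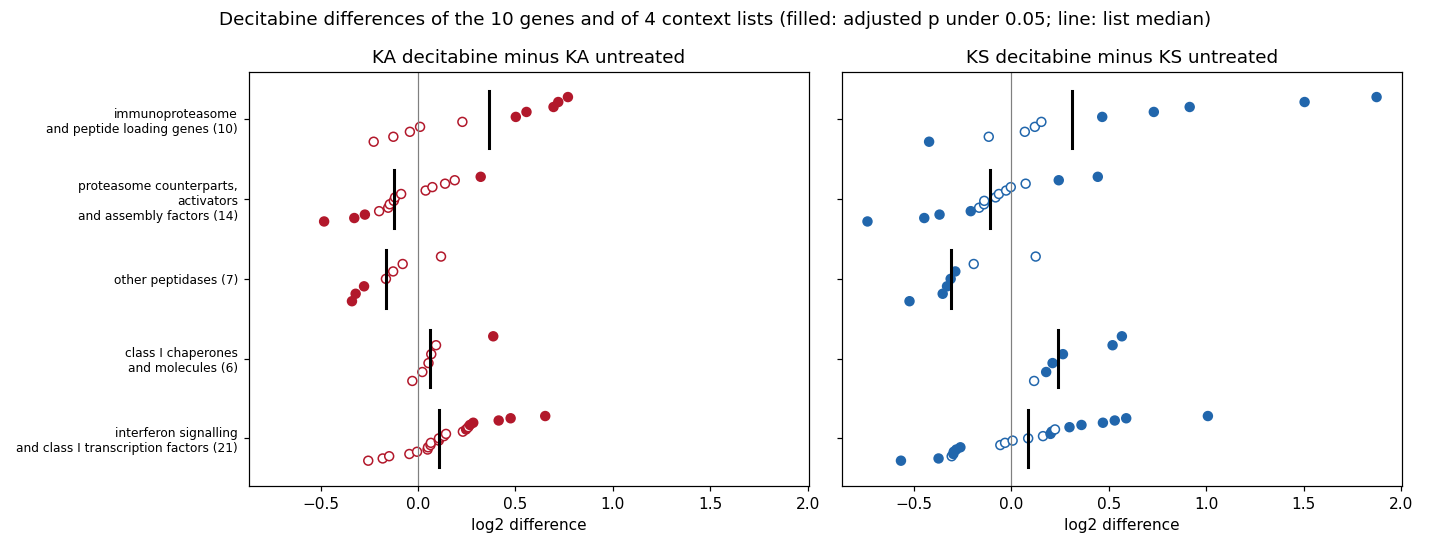
Log2 differences with decitabine (horizontal axis, same range in both panels) of the 10 genes and of 4 lists around them, KA on the left and KS on the right; each point is a gene, filled at an adjusted p under 0.05, and lines are list medians. The medians of the 10 genes are 0.36 in KA and 0.31 in KS, and those of the other peptidases -0.16 and -0.31.

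Between untreated lines, against 14.3% of all rows lower and 11.6% higher in KA, the same lists had 4 of 14 proteasome genes lower, 2 of 7 peptidases higher and 2 lower, 1 of 6 chaperones and class I molecules higher and 1 lower, and 2 of 21 interferon and transcription genes higher and 7 lower. Without untreated KS replicate 3 the peptidases had 1 higher and 3 lower, and without untreated KS replicate 1 the chaperones and class I molecules had 1 higher and 3 lower. PSME1 (-0.40 ± 0.06, adjusted p = 0.000426), IRF1 (-0.59 ± 0.08, adjusted p = 7.15e-05) and NFKB1 (-0.55 ± 0.08, adjusted p = 0.000212) were lower in KA, as were TPP2, a cytosolic tripeptidyl peptidase (-0.53 ± 0.07, adjusted p = 0.00015), and UGGT1 (-0.28 ± 0.06, adjusted p = 0.0033). JAK1, a kinase of the interferon receptors (0.46 ± 0.07, adjusted p = 0.00018), NRDC, a metalloendopeptidase (0.37 ± 0.07, adjusted p = 0.00151), and CANX (0.27 ± 0.06, adjusted p = 0.00368) were higher in KA. LAP3 was higher in KA by 0.22 ± 0.07 (adjusted p = 0.0300), a call lost in 7 of 15 alternatives. B2M differed by -0.24 ± 0.09, which was not called (adjusted p = 0.0559).

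Between treated lines, against 12.2% of all rows lower and 15% higher in KA, 1 of 14 proteasome genes was higher and 2 lower, 2 of 7 peptidases were higher and 2 lower, 4 of 6 chaperones and class I molecules were lower, and 5 of 21 interferon and transcription genes were higher and 7 lower. The higher proteasome gene, PSMG1, lost its call in 9 of 15 alternatives, and 1 of the lower ones, POMP, lost it without treated KA replicate 1 or treated KS replicate 1. The interferon and transcription counts were 3 higher and 4 lower without treated KA replicate 1, and 4 and 4 without treated KA replicate 2 or 3 or treated KS replicate 1 or 3. JAK1 (0.50 ± 0.07, adjusted p = 8.26e-05), LAP3 (0.40 ± 0.07, adjusted p = 0.000602) and NRDC (0.36 ± 0.07, adjusted p = 0.00159) were higher in KA. PSME1 (-0.52 ± 0.06, adjusted p = 4.48e-05), UGGT1 (-0.52 ± 0.06, adjusted p = 2.43e-05), TAPBPL (-0.91 ± 0.15, adjusted p = 0.000464) and B2M (-0.37 ± 0.09, adjusted p = 0.005) were lower in KA. IRF2 (-0.61 ± 0.09, adjusted p = 0.000224), SOCS1 (-0.77 ± 0.12, adjusted p = 0.000316) and IFNGR2, a subunit of the interferon gamma receptor (-0.43 ± 0.10, adjusted p = 0.00403), were lower too.

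Over the 12 arrays, the 10 genes formed 45 pairs with a median Pearson r of 0.45. The 3 pairs above 0.9 were TAPBP with ERAP1 (0.97), ERAP1 with ERAP2 (0.96) and TAPBP with ERAP2 (0.92). PSMB9 and TAP1 stood at 0.89, and TAP1 and TAP2 at -0.59. The arrays fall into 4 groups, so these values describe the group pattern above and carry no test.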

How the data were processed

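The table holds log2 intensities as deposited by the authors. The background correction, summarization and normalization behind them, and the genome build, are not given in the sources used here, and no further scaling was applied. Rows were named through the platform annotation (19460 rows with 1 symbol, 1754 with several, 12083 unnamed), with symbols updated by Entrez identifier to RefSeq. Each gene was read on its brightest row, alone or shared, giving 19010 rows. Rows of HLA-region genes are repeated, and the 3 rows each of PSMB8, PSMB9 and TAP1 are identical. A model of 4 group means over the 12 arrays was fitted with limma 3.58.1 in R 4.3.3 (8 residual and 4.68 prior degrees of freedom) with Benjamini-Hochberg adjustment. The number of arrays limits the precision. The fit was tested on simulated data. Alternatives covered row choice, scaling, a filter on dim rows, the variance model, array weights, a replicate block and each array left out. Leaving out both KS arrays that stood apart was added after seeing the data. The 10 genes, the lists and the rule for naming genes (all 10, from each list at most 4 of the genes with the smallest adjusted p in a comparison, and fixed partners such as PSMB6 and B2M) were chosen with earlier results of these data known. IRF9 in KS fell outside the rule and is given beside its KA value. Promoter sequences are from RefSeq (GRCh38.p14), with 9 of the 10 genes matched by symbol. Figures were drawn with matplotlib 3.10.9.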

Additional observations from a re-analysis of the deposited data

Results flagged for a closer look

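The test of the difference between decitabine responses passed for 2 of the 10 genes, against 6.92% of all rows in either direction. PSMB9 responded less in KA than in KS (-1.65 ± 0.24, adjusted p = 0.00315, limma), with treated values of 4.63 to 4.93 in KA against untreated values of 4.52 to 4.69, and treated values of 6.61 to 6.69 in KS against untreated values of 4.36 to 5.27. With each array left out in turn, the difference lay between -1.90 and -1.44 (adjusted p = 4.91e-05 to 0.012). Outside treated KS, PSMB9 read at the height of a marker not expected in K562. This difference is therefore one of intensities, and its size in RNA is not shown. CALR responded more in KA than in KS (0.38 ± 0.10, adjusted p = 0.0360), with values between 0.32 and 0.44 when single arrays were left out and adjusted p = 0.029 to 0.0836.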

How the results depend on the processing

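The number of the 10 genes called kept within 1.5 times under each alternative for the decitabine effects in KA and KS and for both comparisons of the lines. Leaving out single arrays gave 5 in KA, 6 to 7 in KS, 4 to 6 between untreated lines and 5 to 6 between treated lines. Of all rows, the main fit called 14.9% in KA, 30.8% in KS, 25.9% between untreated lines and 27.2% between treated lines. For the difference of responses, 2 genes were called, but 1 with all rows of the table tested, 1 with the replicate block, and 1 to 3 with single arrays left out (3 without both KS arrays that stood apart). Over 50 gene results and 895 alternative values, 22 calls were lost, 7 were gained and no called difference changed its sign. The sign changed in 37 values that were not called. Same-numbered arrays deviated together at r between -0.26 and 0.19 (2 of 18 pairs above 0.1), and the block was no main analysis. With groups of 3 arrays, these values cannot show whether same-numbered arrays shared a batch. With the block, the CALR call was lost (adjusted p = 0.0717), and no other call among the 10 genes changed. Over all rows, calls for the difference of responses numbered 1315, and 838 with the replicate block, 1989 with an intensity trend, 2431 with array weights and 589 to 2178 with single arrays left out. Calls for decitabine in KA numbered 2839, and 4648 with array weights and as few as 1757 without treated KA replicate 3. Signal close to background limits PSMB8 and ERAP2. NLRC5, PSMB10, ERAP2, PSMB9 outside treated KS and untreated TAP1 read at the height of some markers not expected in K562. Folds there describe intensities, and the lack of a call there does not show steady expression.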

Other observations

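Among genes with at least 1 group mean above background, 15468 were ranked by Pearson r with TAP1 and with ERAP1 over the 12 arrays. Closest to TAP1 were PLD3 (0.99), FNDC4 (0.99), ITM2C (0.99), FEZ1 (0.99) and ERGIC3 (0.98). PLD3, a lysosomal nuclease, read 9.50 in KA with decitabine, 9.03 in KA untreated, 9.94 in KS with decitabine and 9.0 in KS untreated. FEZ1, a kinesin adaptor, read 6.86, 5.82, 7.86 and 5.83 in the same order of groups. Closest to ERAP1 were TCAIM (0.99), SMARCA1 (0.99), GLMP (0.99), SIAE (0.99) and KSR1 (0.99). SMARCA1, a chromatin remodeller, read 5.98 in KA with decitabine, 5.07 in KA untreated, 7.62 in KS with decitabine and 6.26 in KS untreated. These genes were picked as the nearest of many over 4 groups, and nothing about shared control follows from the ranks.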
